A study of Mus musculus with 8 samples.

Results

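The H3ac peaks at 3 genes of bacterial pattern recognition, Tlr4, Tlr2 and Cd14, were examined in mouse macrophage-like cells. The peak lists carry no gene names, so the members were taken from fixed windows on GRCm39: chromosome 4 from 66735000 to 66770000 for Tlr4 (gene ID 21898), chromosome 3 from 83735000 to 83760000 for Tlr2 (gene ID 24088), and chromosome 18 from 36848000 to 36870000 for Cd14 (gene ID 12475). The windows held 47 of the 193863 peaks called on chromosomes in the 4 libraries. Merged wherever peaks overlapped by at least 1 bp, they formed 9 of 81544 regions: 2 at Tlr4, 3 at Tlr2 and 4 at Cd14. The cells were RAW 264.7, an established mouse line with macrophage properties, treated with Gel or with CuNZ@Gel for 48 h, the latter being the nanozyme hydrogel of a study on diabetic wounds. Each treatment had 2 immunoprecipitated libraries, made with an antibody against acetylated H3, and 2 input libraries that were not analysed here. The shared protocol speaks of CuNZ@Gel extracts alone, so the Gel group rests on its treatment label. The labels do not tell whether both libraries of a treatment stem from separate cultures, so p-values measure only the spread between these libraries, which may be technical. Pairs of values below are in the order replicate 1, replicate 2.

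TLR4 and TLR2 are transmembrane receptors of the macrophage surface. TLR4, bound to its partner protein MD-2, recognises lipopolysaccharide of Gram-negative bacteria, and TLR2, paired with TLR1 or TLR6, recognises bacterial lipoproteins. CD14 is a membrane-anchored co-receptor that hands lipopolysaccharide to TLR4 and also serves TLR2 ligands. The receptors signal through adaptors such as MyD88 to NF-kB, a transcription factor of inflammatory genes. Acetylation of histone H3 tails marks active promoters and enhancers.

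Judged by the background of their peaks, the CuNZ@Gel libraries were shallower than the Gel libraries, which bears on every comparison here. The lists hold no read totals to measure depth directly. The commonest background solved from each list was 4.62 and 4.28 fragments in Gel, and 3.45 and 2.46 in CuNZ@Gel. The lists held 58612 and 60483 peaks on chromosomes for Gel, and 40075 and 34693 for CuNZ@Gel. Depth and treatment thus cannot be told apart by the group difference alone. Each member region was therefore set beside regions of like Gel fold, which went through the same libraries. Fold means the authors' fold enrichment at a peak's summit. Summit height means the fragments at the summit, solved from the authors' fold and p, divided by the library's background.

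All 3 genes carried H3ac in all 4 libraries, with less of each window under peaks after CuNZ@Gel. Of the 9 regions, 8 had a peak in both Gel libraries and 7 had a peak in all 4. Among these 7, covered width was lower in each CuNZ@Gel library than in either Gel library at 6 and overlapped at 1, where 74.5% of the 21909 regions with peaks in all 4 libraries had the lower order. Fold was lower without overlap at 6 of the 7, against 63.2% of all such regions, and summit height at 5 of the 7, against 56.7%. No member was higher without overlap on any of these 3 measures, against 1.26% of regions for width, 4.55% for fold and 7.18% for height. Such an order was therefore the usual one in these libraries and was not particular to the 3 genes. Of those 8 Gel regions, 1 had no CuNZ@Gel peak and 7 had one in both CuNZ@Gel libraries, against 24.9% and 55.7% of 39317 regions.

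Covered width per window did not overlap between the groups at any of the 3 genes. In the Tlr4 window, peaks covered 3125 and 3252 bp in Gel, and 2640 and 1865 bp in CuNZ@Gel. In the Tlr2 window the values were 6396 and 6516 bp in Gel and 5818 and 4852 bp in CuNZ@Gel. In the Cd14 window they were 10456 and 9927 bp in Gel and 8201 and 7481 bp in CuNZ@Gel. CuNZ@Gel replicate 2, the shallowest library as judged by its background, had the least covered width in each window. The CuNZ@Gel mean was 70.6% of the Gel mean at Tlr4, with 2252 ± 548 against 3188 ± 89.8 bp (SD, n = 2). It was 82.6% at Tlr2, with 5335 ± 683 against 6456 ± 84.9 bp, and 76.9% at Cd14, with 7841 ± 509 against 10192 ± 374 bp. These window values take in flanking regions. The Cd14 window differed by -2350 bp and its main region alone by -635 bp. At Tlr4 the values were -936.0 and -702 bp, and at Tlr2 -1121 and -880.5 bp. In each window the exact permutation test gave a two-sided p of 0.3333, and no smaller p is possible with 2 libraries per group. Without CuNZ@Gel replicate 2 the difference was -548.5 bp at Tlr4 against -936.0 bp with it, and -638.0 bp at Tlr2 against -1121 bp.

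**Figure D1:**
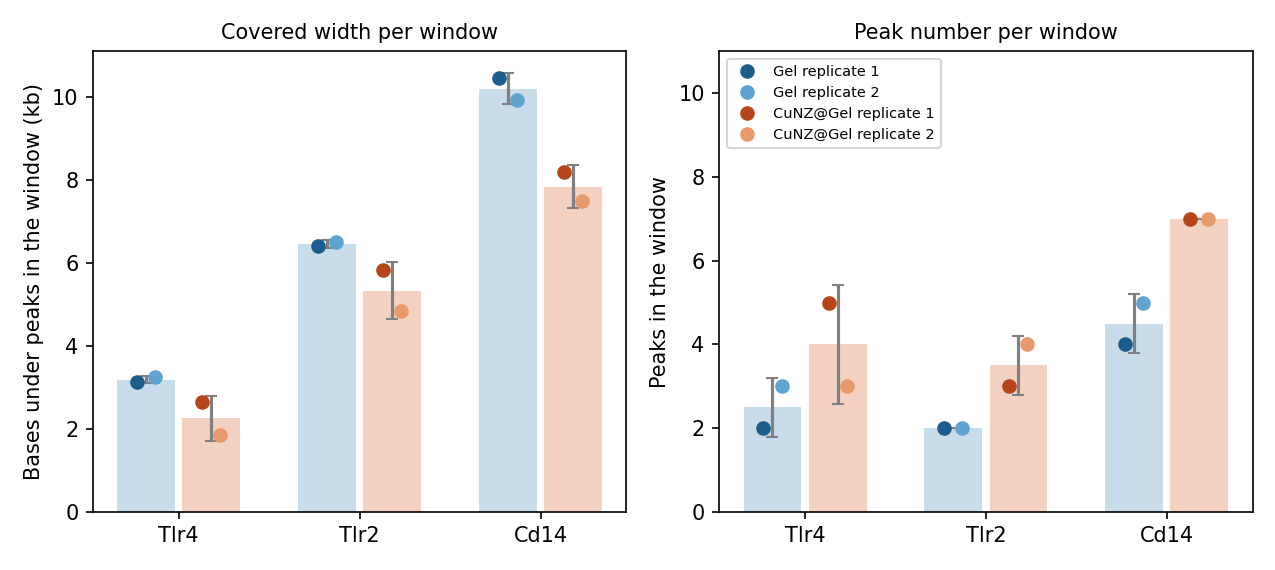
Bases under peaks in kb (left) and number of peaks (right) in each gene window; points are single libraries, bars are group means and error bars are the SD of 2 libraries. Covered width is lower in both CuNZ@Gel libraries at all 3 genes (2640 and 1865 bp against 3125 and 3252 bp at Tlr4), while peak number overlaps at Tlr4 and is higher at Tlr2 and Cd14.

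At Tlr2 and Cd14 the lower coverage came with more peaks. The Tlr2 window had 2 peaks in each Gel library against 3 and 4 in CuNZ@Gel, and the Cd14 window had 4 and 5 against 7 and 7 (exact two-sided permutation p = 0.3333 for both). At Tlr4 the groups overlapped, with 2 and 3 peaks in Gel and 5 and 3 in CuNZ@Gel (exact two-sided permutation p = 0.6667). Of the 7 regions with peaks in all 4 libraries, 3 had more peaks in each CuNZ@Gel library than in each Gel library, where 6.86% of all such regions did: the main regions of Tlr2 and Cd14 and one flanking region of Cd14. Among regions alike in both Gel fold and Gel covered width, the split share was 41.2% of 34 for the main Tlr2 region, 70.0% of 10 for the main Cd14 region and 13.1% of 406 for the flanking one. With only peaks of −log10 q of at least 5, the mean peak number at Cd14 was no longer higher in CuNZ@Gel, and the difference was -0.5000 peaks in place of 2.500.

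**Figure D2:**
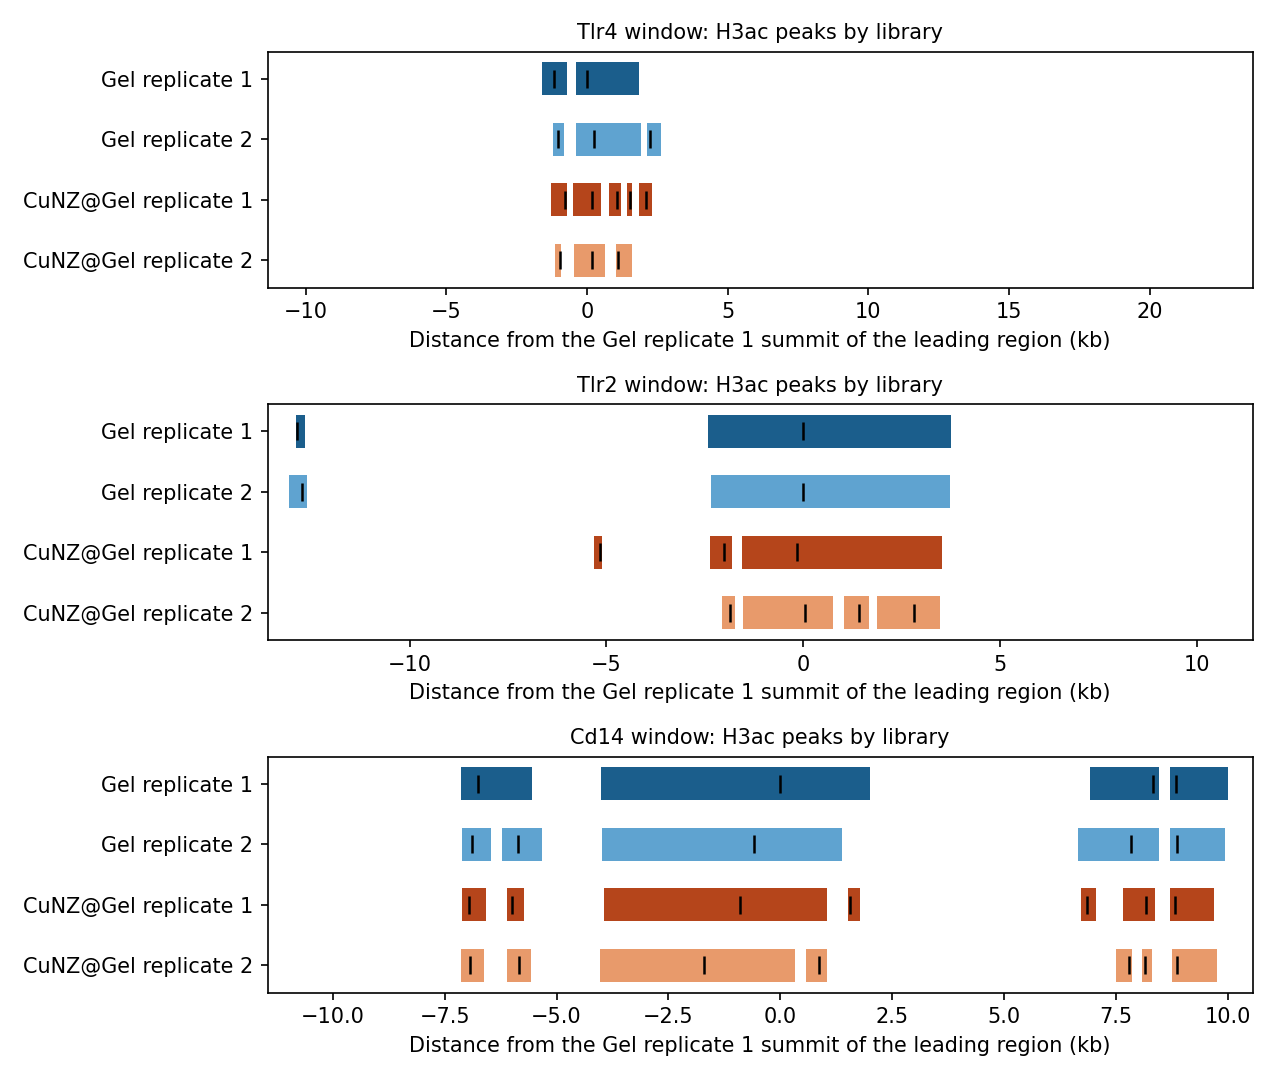
H3ac peaks of the 4 libraries in the Tlr4, Tlr2 and Cd14 windows, in kb from the Gel replicate 1 summit of each gene's main region; bars span the called peaks and black ticks mark their summits. The main Tlr2 region is 1 unbroken peak in each Gel library and 2 and 4 peaks in CuNZ@Gel, within nearly the same outer limits.

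Tlr4, the lipopolysaccharide receptor, had the weakest main region of the 3 genes in Gel, with CuNZ@Gel values of fold and summit height close below the Gel values. This region lay on chromosome 4 from 66745847 to 66748984. Its fold was 9.66 and 11.2 in Gel, and 9.22 and 9.55 in CuNZ@Gel. The groups did not overlap. The summit heights were 14.7 and 13.6 times background in Gel and 11.6 and 13.0 in CuNZ@Gel, from 68 and 58 summit fragments against 40 and 32. The mean fold after CuNZ@Gel was 0.901 times the Gel mean, where 1923 regions of like Gel fold with peaks in all 4 libraries had a median ratio of 0.736, and 87.6% of them had a lower ratio than Tlr4. For summit height the ratio was 0.870 against a median of 0.792, with 71.4% of like regions lower. In Gel replicate 1 the background of this peak was 1.33 times the library's, which lowers the fold and not the summit height. For the highest peak of the region it was 1.00 times in Gel replicate 2 and 0.999 times in both CuNZ@Gel libraries. Without Gel replicate 1 the ratio of fold was 0.840, with 76.9% of like regions lower. Leaving out each library in turn, between 76.9% and 92.7% of like regions had a lower ratio of fold.

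The Tlr4 summits of the CuNZ@Gel libraries lay between those of the Gel libraries, while less of the region was covered after CuNZ@Gel. The summits lay at 66746339 and 66746595 in Gel and at 66746531 and 66746527 in CuNZ@Gel, a spread of 256 bp that the Gel pair alone spanned. Over the 1923 regions of like Gel fold with peaks in all 4 libraries the median spread was 177 bp, with 66.6% smaller. Over the 253 alike in Gel fold and width it was 327 bp, with 44.3% smaller. The main region was covered over 2254 and 2854 bp in Gel and over 2057 and 1647 bp in CuNZ@Gel, which did not overlap. A single peak of 2254 bp in Gel replicate 1 stood against 4 peaks of 1006, 422, 183 and 446 bp in CuNZ@Gel replicate 1. Peaks of 1097 and 550 bp were called in CuNZ@Gel replicate 2, and of 2331 and 523 bp in Gel replicate 2. Of the 2254 bp covered in both Gel libraries, 67.0% and 69.7% were covered in CuNZ@Gel. The ratio of covered width, 0.725, was close to the median of 0.751 over 1938 regions of like Gel fold, of which 43.0% had a lower ratio. Without Gel replicate 1 the ratio was 0.649 against a median of 0.776, with 24.3% lower, and with only peaks of −log10 q of at least 5 the share lower was 25.0%.

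A smaller Tlr4 region, on chromosome 4 from 66744746 to 66745641, was kept in both CuNZ@Gel libraries. Its fold was 3.92 and 4.73 in Gel and 4.50 and 4.63 in CuNZ@Gel, and the groups overlapped. Its covered width also overlapped, with 871 and 398 bp in Gel and 583 and 218 bp in CuNZ@Gel. Of 6717 regions with a Gel fold like this one, 35.9% kept a peak in both CuNZ@Gel libraries, 36.1% in 1 and 28.0% in neither. It rests on 15 to 24 summit fragments per library. No other peak was called in the 35 kb window.

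Tlr2, the lipoprotein receptor, had a broad H3ac domain that was a single peak in each Gel library. It lay on chromosome 3 from 83746163 to 83752335 and was 6173 bp wide in Gel replicate 1 and 6071 bp in Gel replicate 2. Only 0.12% of the peaks in either Gel list were as wide or wider. In CuNZ@Gel replicate 1 it was called as 2 peaks of 562 and 5069 bp, and in CuNZ@Gel replicate 2 as 4 peaks of 340, 2288, 627 and 1597 bp. The outer limits differed little, since first to last base spanned 5885 and 5546 bp in CuNZ@Gel. The gaps within that span came to 254 and 694 bp. Of the 6071 bp covered in both Gel libraries, 92.5% and 79.9% were covered in CuNZ@Gel. Covered width was 5631 and 4852 bp in CuNZ@Gel, a ratio of 0.856 to Gel, above that of 68.6% of 937 regions of like Gel fold, whose median ratio was 0.801.

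The size of the Tlr2 difference depended on the measure. Fold was 23.1 and 24.8 in Gel, and 9.52 and 15.6 in CuNZ@Gel, so the CuNZ@Gel values were lower and apart from each other. Summit heights were 28.6 and 30.4 times background in Gel against 20.3 and 21.5 in CuNZ@Gel, and here the CuNZ@Gel pair lay close together. The summit fragments were 132 and 130 in Gel and 70 and 53 in CuNZ@Gel. In CuNZ@Gel replicate 1 the background of this peak was 1.87 times the library's, where 1.94% of the peaks of that list exceeded 1.5 times. It was 0.999 times in CuNZ@Gel replicate 2 and 1.03 and 1.00 times in Gel. A higher local background lowers the fold and leaves the summit height as it is. The ratio of fold, 0.525, was above that of only 7.15% of 937 like regions, with a median of 0.664. The ratio of summit height, 0.710, was near their median of 0.717, with 47.3% of them lower. Without CuNZ@Gel replicate 1 the ratio of fold was 0.653, and 54.2% of like regions were lower, so the low rank rested on that library. Without CuNZ@Gel replicate 2 it was 0.398, with 0.747% lower.

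The summits of the Tlr2 domain lay within 203 bp of each other. They were at 83748596 and 83748592 in Gel and at 83748442 and 83748645 in CuNZ@Gel. The median summit spread of like regions was 86.0 bp, and 74.6% of them had a smaller one. Among the 34 regions alike in Gel fold and Gel width the median was 236 bp.

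**Figure D3:**
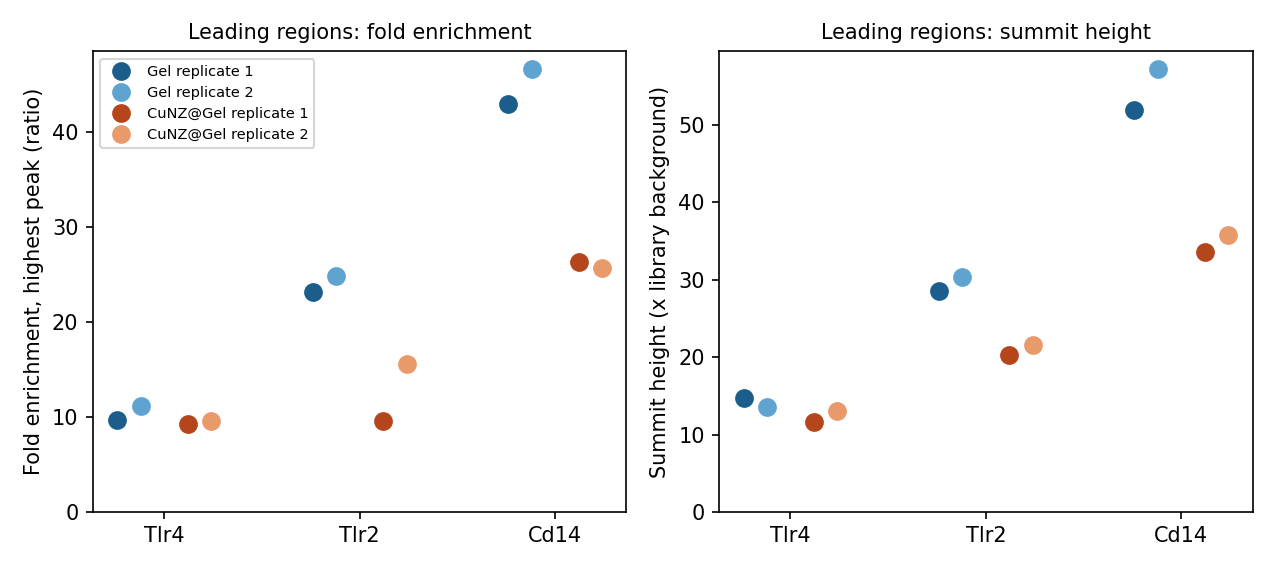
Fold enrichment of the highest peak (left, a ratio) and summit height in multiples of the library background (right) for the main region of each gene; each point is 1 library. All 3 genes are lower in both CuNZ@Gel libraries on both measures, by least at Tlr4, and the Tlr2 fold of 9.52 in CuNZ@Gel replicate 1 sits apart from its summit height of 20.3.

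The Tlr2 promoter is printed to show the NF-kB and Sp1 letters it holds. The RefSeq promoter table, of build GRCm38.p6, matched 1 of the 3 members. In that build these 250 bases before the gene start are chr3:83841609-83841858 on the minus strand. That build differs from the build of the peaks, so its place within the domain was not determined. Capitals mark the matches, 5′ to 3′.
Tlr2 promoter: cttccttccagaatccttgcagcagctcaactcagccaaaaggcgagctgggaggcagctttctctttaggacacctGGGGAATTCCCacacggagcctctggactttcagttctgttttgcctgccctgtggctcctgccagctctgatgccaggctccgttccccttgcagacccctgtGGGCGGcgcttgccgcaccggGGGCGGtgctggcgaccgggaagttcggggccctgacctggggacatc
The search covered both strands. The NF-kB pattern of 3 G, any 5 bases and 2 C matched 2 overlapping stretches, from -173 to -164 and from -172 to -163 relative to the start, and 45.8% of 32851 promoters of the same length held it. The Sp1 box GGGCGG matched at -69 to -64 and at -48 to -43, and was held by 32.7% of promoters. Neither GAGGAA, a PU.1 core, nor the TATA box TATAAA was found in these letters, against 23.3% and 12.4% of promoters. The motifs were chosen with the sequence known, and a match is a description of letters, not a bound site.

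Outside the domain, the Tlr2 window held 2 weak regions that were not shared between the groups. The first, on chromosome 3 from 83735546 to 83735990, had peaks of fold 2.35 and 3.12 in Gel and none in CuNZ@Gel. Its Gel peaks were 223 and 445 bp wide and rested on 16 and 20 summit fragments. Of 2017 regions with a like Gel fold, 75.4% also had no CuNZ@Gel peak, so its absence was the common case. The second, from 83743288 to 83743474, had a peak in CuNZ@Gel replicate 1 alone, of 187 bp, fold 3.25 and 16 summit fragments. Such regions, with a peak in that library and no other, made up 4.82% of all regions.

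Cd14, the co-receptor, had the highest H3ac summit of the 3 genes in every library. Its main region lay on chromosome 18 from 36855415 to 36861459. Fold was 42.9 and 46.6 in Gel, and 26.3 and 25.7 in CuNZ@Gel. The CuNZ@Gel pair was lower and close together. Within the Gel lists this peak was among the top 0.27% and 0.16% by fold. Within the CuNZ@Gel lists, which are shorter, it was among the top 0.67% and 0.63%, a lower rank than in Gel. Summit heights were 51.9 and 57.2 times background in Gel and 33.6 and 35.8 in CuNZ@Gel, from 240 and 245 summit fragments against 116 and 88. The ratio of fold was 0.582 against a median of 0.633 over 119 regions of like Gel fold, of which 32.8% had a lower ratio. The ratio of summit height was 0.636 against 0.693, with 31.1% lower. Without Gel replicate 1 the shares of like regions lower were 21.0% for fold and 15.2% for height, and without CuNZ@Gel replicate 1 they were 42.0% and 43.7%. Lower summit height in both CuNZ@Gel libraries was seen at 100% of these like regions.

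The main Cd14 region differed less in width than in height. So did its like regions, with a median ratio of 0.841 for covered width and 0.693 for summit height. Covered width was 6013 and 5353 bp in Gel and 5264 and 4832 bp in CuNZ@Gel, without overlap. Of the 5353 bp covered in both Gel libraries, 93.3% and 89.4% were covered in CuNZ@Gel. Each CuNZ@Gel library had 1 long peak, of 4993 and 4358 bp, and a short one of 271 and 474 bp on the side of higher coordinates. The ratio of covered width, 0.888, exceeded that of 70.6% of like regions. The summits were spread over 1712 bp, at 36859450 and 36858857 in Gel and at 36858554 and 36857738 in CuNZ@Gel. In 98.3% of like regions the spread was smaller, with a median of 35.0 bp. The Gel libraries alone differed by 593 bp and the CuNZ@Gel libraries by 816 bp. Compared with 10 regions alike in Gel fold and Gel width, 90.0% of them had a smaller spread.

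The flanking regions of the Cd14 window differed in how much of them was kept. The region on the lower side, from 36852307 to 36854129, was covered over 1604 and 1548 bp in Gel and over 901 and 1057 bp in CuNZ@Gel. Its fold was 6.06 and 7.19 against 5.85 and 4.05, which did not overlap, while its summit height did, with 7.14 and 8.64 against 7.25 and 5.28. Its ratio of covered width, 0.621, was near the median of 0.636 over 2974 like regions.

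The region from 36866110 to 36867913 had the lowest ratio of covered width among the 7 regions with peaks in all 4 libraries, and the lowest rank of the 7 among its like regions on width, fold and summit height. It was covered over 1546 and 1804 bp in Gel and over 1054 and 577 bp in CuNZ@Gel. Its fold was 7.12 and 7.38 in Gel and 4.50 and 3.89 in CuNZ@Gel, far apart compared with the spread within each pair. Each Gel library had 1 peak there and each CuNZ@Gel library 2. Its ratio of fold was 0.578, and 5.11% of 2366 like regions had a lower one. Its ratio of summit height was 0.647 with 7.86% lower, and its ratio of covered width 0.487 with 19.7% lower. These are ranks among like regions and not tests, and this region was singled out after its values were seen. It rested on 19 and 14 summit fragments in CuNZ@Gel against 39 and 38 in Gel.

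The neighbouring region from 36868151 to 36869443 stayed 1 peak in every library. Its covered width was 1293 and 1222 bp in Gel and 982 and 1015 bp in CuNZ@Gel. Its fold was 9.80 and 10.4 in Gel and 6.30 and 8.39 in CuNZ@Gel. The groups did not overlap, and the ratio of fold, 0.729, was close to the median of 0.745 over 1949 like regions. Its summits lay within 36 bp of each other across the 4 libraries. In the gene order of GRCm38, Tmco6, Ndufa2 and Ik are the next protein-coding genes after Cd14, so the regions of this window were not assigned to single genes.

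**Figure D4:**
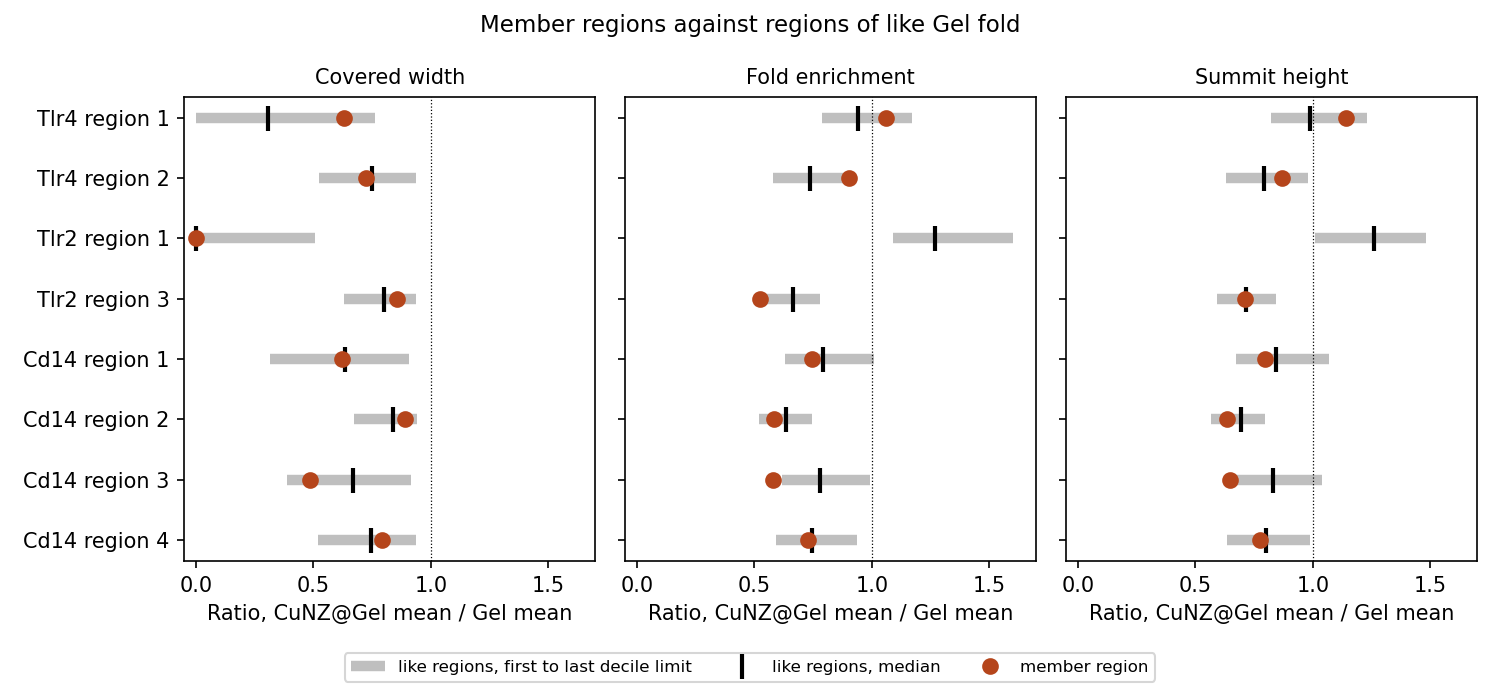
Ratio of the CuNZ@Gel mean to the Gel mean for covered width, fold enrichment and summit height in the 8 member regions with peaks in both Gel libraries (points, numbered along each window by coordinate), beside regions of Gel fold within 10% (black tick: median; grey bar: from the first to the last decile limit). Most points lie within the grey bars; the fold ratios of Tlr2 region 3 (0.525) and Cd14 region 3 (0.578) and the height ratio of Cd14 region 3 (0.647) lie below them, and Tlr2 region 1 has no CuNZ@Gel peak. Fold and height of like regions count only those with peaks in all 4 libraries, which raises the bars of the weakest.

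The order of the 3 genes was the same in all 4 libraries, by fold and by summit height. In both Gel libraries the fold of the main region was highest at Cd14, then Tlr2, then Tlr4, with no overlap between neighbours. In CuNZ@Gel Cd14 was again highest, and the ranges of Tlr2 (9.52 and 15.6) and Tlr4 (9.22 and 9.55) overlapped. By summit height neighbours did not overlap in either group.

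Fitted across all regions with limma, covered width gave no call in the planned fit, and the number of calls depended on the fit. Of 43964 regions with a peak in at least 2 libraries, 0% were called narrower and 0% wider at an adjusted p of 0.05, although 43.2% were narrower at an unadjusted p under 0.05 and 0.653% wider. The main Tlr4 region differed by -702 ± 288 bp (SE, CuNZ@Gel minus Gel; limma, adjusted p = 0.152). The main Tlr2 region differed by -880.5 ± 338 bp (limma, adjusted p = 0.136) and the main Cd14 region by -635 ± 336 bp (limma, adjusted p = 0.227). The smallest adjusted p of the members was 0.0502, at the lower flanking region of Cd14, with -597 ± 101 bp (limma, unadjusted p = 0.00556). No region had a smaller adjusted p. The adjustment can give many regions of different unadjusted p the same value, so this does not place the region first. Other limma fits called 12321 of 43964 regions narrower on a log2 scale and 3458 of 43964 without trend and robust. They called 3860 of 21909 among regions in all 4 libraries and 7444 of 27978 at the stricter threshold. Calls in these fits were thus not particular to the members. The lower flanking region of Cd14 was called in the first 3 of these fits (limma, adjusted p = 0.0347, 0.0496 and 0.039), and no main region was called in those. The upper flanking region of Cd14 that starts at 36866110 was called among regions in all 4 libraries (limma, adjusted p = 0.0476), and the Tlr2 region that starts at 83735546 on the log2 scale (limma, adjusted p = 0.0338). Without Gel replicate 1 the fit called 1080 regions narrower, and without Gel replicate 2 it called 1214. With lists of equal length the fit called 0 of 31895 regions narrower and 0 wider. The median difference over all regions in the planned fit was -293 bp. Depth is not corrected in these widths.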

How the data were processed

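H3ac ChIP-seq peak lists of 4 libraries, 2 per treatment, were used. The tools named by the submitters' processing notes are MACS2 2.2.8, SAMtools 1.17, fastp and deepTools 3.5.6, with build GRCm39. Aligner and calling options: not given in the sources used here. Each peak of the deposited lists has a position, a summit, a score (10 times the −log10 q, cut to a whole number), a fold enrichment ratio over background, and −log10 p-values and q-values per peak, with a lowest −log10 q of 1.30 to 1.35. Peaks were called per library. The deposited group lists were not used.

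Summit fragments and background were solved from the authors' fold, taken as fragments plus 1 over background plus 1, and their Poisson p, to a relative tolerance of 0.0001, in 100% of the peaks of each list. The commonest background of a list, rounded to 2 decimals, served as its depth; the lists hold no read totals. Like regions had peaks in both Gel libraries and a mean Gel fold, from the highest peak, within 10% of the member's. The main region of a gene was the one with most covered bases in Gel. Covered width was compared by exact permutation over 6 assignments and by limma 3.58.1 (trend and robust, R 4.3.3; regions with peaks in at least 2 libraries; Benjamini-Hochberg at 0.05); the scripts were tested on simulated data. Fold is the authors' value and was not tested. The members and lists were chosen with earlier results of these data known; comparisons of fold, summit height, splitting and summit spread with like regions were added after the peaks were seen. No annotation of GRCm39 was used, so the other genes of the pathway and markers of cell type were not analysed here. Python 3.11.15 and scipy 1.17.1 were used.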

Additional observations from a re-analysis of the deposited data

How the results depend on the processing

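Covered width was lower in CuNZ@Gel in each of the 3 windows under all settings run. Without 1 library at a time the difference ranged from -1324 to -548.5 bp at Tlr4, from -1604 to -638.0 bp at Tlr2 and from -2710 to -1990 bp at Cd14. With only peaks of −log10 q of at least 5, the Cd14 peak number reversed to -0.5000 from 2.500; weak peaks are left out by construction. The share of Gel regions without a CuNZ@Gel peak, 24.9%, was 22.4% at that threshold, 10.5% with equal list length and 44.2% when CuNZ@Gel peaks had to cover at least 50% of the Gel-covered bases. Without 1 library it was 30.7% to 46.0%. There a peak was needed in only 1 Gel library, or missing from only 1 CuNZ@Gel library, so these shares have another definition than the 24.9%.

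The rank of covered width among like regions moved. For Tlr4, 43.0% of like regions had a lower ratio; this was 39.1% when matched on summit height, 49.8% when matched on fold and width, 38.8% with equal list length, 25.0% at the stricter threshold and 24.3% to 52.6% without 1 library, lowest without Gel replicate 1. For Tlr2, 68.6% became 61.8% matched on fold and width, 63.0% at the stricter threshold and 54.1% to 78.2% without 1 library. For Cd14, 70.6% became 80.0% matched on fold and width, 61.3% at the stricter threshold and 54.3% to 80.0% without 1 library, with 58.8% for lists of equal length. The cause was not tested.

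Calls across all regions were not stable. The planned limma fit called 0 narrower and 0 wider of 43964 regions (19011 and 287 at an unadjusted p under 0.05). These numbers became 12321 and 254 with log2 of covered bases + 100, and 3458 and 14 without trend and robust. The numbers were 3860 and 13 of 21909 regions in all 4 libraries, and 7444 and 62 of 27978 at the stricter threshold. Without 1 library they were 0 to 1214 narrower and 0 to 6 wider, and there the spread rests on the other group's pair. No main region was called under any of these. Flanking regions were followed in the fits on the full lists. The lower Cd14 flanking region had an adjusted p of 0.0347 on the log2 scale, 0.0496 without trend and robust and 0.039 for regions in all 4 libraries. The Cd14 region from 36866110 had 0.0476 in the last of these, and the weak Tlr2 region from 83735546 had 0.0338 on the log2 scale. A fit with a replicate block gave 0 narrower and 0 wider regions, and so did the fit on lists of equal length, with 31895 regions tested. Same-numbered libraries had deviations that correlated at 0.0064, so nothing shows that the numbers pair samples.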
